A study of Homo sapiens with 16 samples.

Results

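The BCL2 family decides at the mitochondrial outer membrane whether a cell starts apoptosis. Anti-apoptotic proteins hold the pore-forming effectors in check, and BH3-only proteins, which share a single short domain with the rest of the family, relieve that block when a cell is stressed. Blood cells and leukaemias differ in which anti-apoptotic protein they lean on, and BCL2 inhibitors are in clinical use in acute myeloid leukaemia (AML). Described here are 10 members, chosen by gene symbol in the in vitro count tables, among 60357 genes listed. They comprise 4 anti-apoptotic genes (BCL2, BCL2L1, MCL1 and BCL2A1), 4 BH3-only genes (BCL2L11, BBC3, PMAIP1 and BID) and the 2 effectors BAX and BAK1. All 10 had at least 600 reads in total over the 12 in vitro libraries.

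The libraries are RNA-seq of Kasumi-1 and SKNO-1, established AML cell lines with the t(8;21) translocation, whose RUNX1/ETO fusion joins RUNX1 to RUNX1T1 (also called ETO). All cells received lipid nanoparticles (LNPs) at 2 µg/ml for 24 h and were harvested on day 3, and SKNO-1 was kept with GM-CSF. The LNPs carried either siRE-mod, a chemically modified siRNA against the fusion junction (genotype labelled RUNX1/ETO knockdown), or siMM-mod, its mismatch control (genotype labelled WT). Each line had 3 libraries labelled siMM-mod and 3 labelled siRE-mod. The labels do not say whether replicates were separate cultures, so p-values measure only the spread between these libraries. The 4 libraries of Kasumi-1 cells from treated mice list all 10 members at 0, with 0.020% to 0.0335% of their reads on any gene, and give no values here.

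In vitro totals ranged from 60559466 to 147990959 counts per library, so that 3 counts, the limit a count of 0 allows, correspond to 0.0196 to 0.0470 CPM, the counts scaled to a common library total. Levels below are CPM normalized by the TMM method over the 12 libraries, and the limit from 3 counts covers counting error only. Of the myeloid markers PTPRC, CD33, MPO, KIT and SPI1, 5 of 5 reached 1 CPM, whereas 0 of 3 T cell and 0 of 3 erythroid markers did. CD79A among 3 B cell markers reached 2.91 CPM, and PDGFRB among 3 stromal markers 1.24 CPM.

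The targeted gene did not follow the labels. RUNX1T1, which counts the fusion as well as any unfused transcript, was 297, 92.9 and 161 CPM in replicates 1, 2 and 3 of Kasumi-1 siMM-mod and 44.4, 159 and 37.3 CPM in those of Kasumi-1 siRE-mod. For SKNO-1 it was 329, 298 and 127 CPM under siMM-mod and 124, 165 and 40.4 CPM under siRE-mod. CD34, a surface marker of blood stem and progenitor cells, crossed the line labels as well. It was 421, 153 and 0.141 CPM for Kasumi-1 siMM-mod, 0.579, 0.108 and 0.627 CPM for Kasumi-1 siRE-mod, 421, 417 and 118 CPM for SKNO-1 siMM-mod, and 117, 0.123 and 0.444 CPM for SKNO-1 siRE-mod. Libraries therefore fell into 6 with CD34 at 117 CPM or more, called CD34-present, and 6 with CD34 under 1 CPM, called CD34-near-absent. IL5RA, the interleukin-5 receptor chain, was at most 0.179 CPM in the former and 36.3 to 68.0 CPM in the latter. Both sets held libraries labelled Kasumi-1 and SKNO-1, and siMM-mod and siRE-mod. Whether names were exchanged between libraries was not tested, so a difference by label is one between libraries so named and may not be one between siRNAs or lines.

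Within each set, 3 libraries had higher RUNX1T1 than the other 3. These were 297 to 329 against 92.9 to 127 CPM in CD34-present libraries and 159 to 165 against 37.3 to 44.4 CPM in CD34-near-absent libraries. CD34 differed between the same libraries, 417 to 421 against 117 to 153 CPM and 0.108 to 0.141 against 0.444 to 0.627 CPM. The members are given below by label and then in this reading order. The reading order was drawn up after the values were seen, and is a description to which no test or mean is applied.

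Short stretches of 4 member promoters are shown first, as examples. BCL2 was higher in the 3 libraries of each set with lower RUNX1T1. BCL2L1, BCL2A1 and BCL2L11 are among the 5 members that separated with CD34. The sequences are from RefSeq (GRCh38.p14), 5′ to 3′ on the strand of the gene, and 9 of the 10 members matched the table, all but MCL1, with 14 windows of 300 bases that run from 250 before the gene start to 50 after it. In the first pair, capitals mark the core letters of RUNX motifs, TGTGGT or, on the other strand, ACCACA. The BCL2 stretch is chr18:63319746-63319775 (minus strand), from 6 bases before the start to base 24 of the transcript. The BCL2L1 stretch is chr20:31724184-31724213 (minus strand), 250 to 221 bases before the upstream of its start sites.
BCL2: ctccccacccctcgccgcACCACAcacagc
BCL2L1: tccagacaaagtgcttaACCACAaggcgat
These letters occurred in 2 of the 14 member windows and in 13.1% of all 35116 RefSeq windows of the same length, so they are not rare in promoters.

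The next pair contrasts the 250 bases before the start of BCL2A1, at chr15:79971197-79971446 (minus strand), with those of BCL2L11, at chr2:111120664-111120913 (plus strand). Capitals mark GC boxes, GGGCGG or CCGCCC on the other strand.
BCL2A1: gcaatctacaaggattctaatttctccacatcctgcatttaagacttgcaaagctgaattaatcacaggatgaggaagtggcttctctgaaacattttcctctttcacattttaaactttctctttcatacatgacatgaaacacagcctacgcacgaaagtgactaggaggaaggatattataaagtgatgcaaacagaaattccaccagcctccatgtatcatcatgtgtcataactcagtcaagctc
BCL2L11: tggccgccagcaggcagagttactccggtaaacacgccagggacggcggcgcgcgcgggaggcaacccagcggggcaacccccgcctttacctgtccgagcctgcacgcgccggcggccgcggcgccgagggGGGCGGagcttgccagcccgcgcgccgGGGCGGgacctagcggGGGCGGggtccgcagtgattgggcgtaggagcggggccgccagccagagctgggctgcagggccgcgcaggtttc
The BCL2A1 stretch is 38.8% G and C with 2 CpG dinucleotides and no GC box, and that of BCL2L11 is 76.8% G and C with 34 CpG dinucleotides and 3 GC boxes, which begin 118, 91 and 75 bases before the start. GC boxes were found in 9 of the 14 member windows, for 6 members, and in 45.0% of all windows. CCAAT boxes (CCAAT, or ATTGG on the other strand) were in 4 member windows and 34.6% of all. A match is a string of letters and was not tested as a binding site.

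BCL2, the anti-apoptotic protein that gave the family its name, was higher in the 3 libraries with lower RUNX1T1 of each set. Its levels by replicate in Kasumi-1 were 61.7, 89.5 and 65.0 CPM with the siMM-mod label and 111, 64.0 and 109 CPM with the siRE-mod label. In SKNO-1 it was 66.7, 64.4 and 105 CPM under siMM-mod and 101, 71.4 and 109 CPM under siRE-mod. Read by CD34 and RUNX1T1, the CD34-present libraries held BCL2 at 61.7 to 66.7 CPM with higher RUNX1T1 and at 89.5 to 105 CPM with lower RUNX1T1. The CD34-near-absent libraries held it at 64.0 to 71.4 and 109 to 111 CPM, so neither split overlapped. Within each group of 3 libraries, however, BCL2 was highest where RUNX1T1 was highest. In CD34-present libraries with lower RUNX1T1, for example, it was 105, 101 and 89.5 CPM at RUNX1T1 of 127, 124 and 92.9 CPM. Being higher with lower RUNX1T1 in both sets, without overlap, was shared by 5.72% of the 15863 genes with at least 600 reads, and BCL2 was the 1 member among them. By label, BCL2 overlapped in both lines, and its log2 fold change of siRE-mod over siMM-mod was 0.40 ± 0.268 (SE) in Kasumi-1 and 0.25 ± 0.274 in SKNO-1 (edgeR quasi-likelihood test, adjusted p = 0.439 and 0.763).

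MCL1, a short-lived anti-apoptotic protein on which many myeloid cells depend, varied least of the 10 members, 1.57-fold between its lowest and highest library. Its levels were 105, 84.2 and 119 CPM in Kasumi-1 siMM-mod, 113, 132 and 113 CPM in Kasumi-1 siRE-mod, 115, 111 and 89.0 CPM in SKNO-1 siMM-mod and 92.1, 115 and 126 CPM in SKNO-1 siRE-mod. The lowest 3 libraries were the CD34-present ones with lower RUNX1T1 (84.2 to 92.1 CPM, against 105 to 115 CPM with higher RUNX1T1), the opposite order to that of BCL2. Among CD34-near-absent libraries MCL1 overlapped between lower and higher RUNX1T1 (113 to 126 and 115 to 132 CPM). By label its log2 fold change was 0.22 ± 0.162 for Kasumi-1 and 0.08 ± 0.186 for SKNO-1 (edgeR, adjusted p = 0.474 and 0.908).

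BCL2L1, which encodes the anti-apoptotic BCL-XL and its shorter pro-apoptotic splice form BCL-XS, separated the libraries by CD34. Kasumi-1 libraries labelled siMM-mod had 10.7, 8.47 and 29.1 CPM and those labelled siRE-mod 21.3, 29.0 and 24.3 CPM. SKNO-1 libraries had 10.5, 10.4 and 6.33 CPM under siMM-mod and 5.50, 23.4 and 25.7 CPM under siRE-mod. The 6 CD34-near-absent libraries (21.3 to 29.1 CPM) all lay above the 6 CD34-present ones (5.50 to 10.7 CPM), and the 3 CD34-present libraries with lower RUNX1T1 were the lowest of all (5.50 to 8.47 CPM). Gene counts cannot tell the splice forms apart. Of the exon bases of BCL2L1, 43.0% overlap ABALON on the opposite strand, which had 826 reads over the 12 libraries beside 21245 for BCL2L1, and whether counting used strand is not given in the sources used here.

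BCL2A1, an anti-apoptotic gene known as a target of NF-kB, was all but missing from one set of libraries. In Kasumi-1 it had 0.0679, 0.0765 and 6.78 CPM (5, 6 and 626 counts) under siMM-mod and 5.38, 4.04 and 6.54 CPM under siRE-mod. In SKNO-1 it had 0.0857, 0.0145 and 0.0157 CPM (6, 1 and 1 counts) under siMM-mod and 0, 6.58 and 8.59 CPM (0, 640 and 1317 counts) under siRE-mod. The 0 in replicate 1 allows up to 0.0447 CPM. All 6 CD34-present libraries were at or under 0.0857 CPM and all 6 CD34-near-absent libraries at 4.04 CPM or more, whatever their RUNX1T1.

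Of the members, 5 were higher in every CD34-near-absent library than in any CD34-present library: BCL2L1, BCL2A1, BCL2L11, BBC3 and BID. None was lower in that way. The same held of 17.5% of the 15863 genes for higher and 15.6% for lower levels. The ribosomal protein share of counts ran from 14.8% to 19.1% in CD34-present and from 11.2% to 16.7% in CD34-near-absent libraries, and the summed level of the 5 myeloid markers from 11632 to 23788 CPM and from 2422 to 6855 CPM. MPO reached 22667 CPM and KIT, the next highest, 999 CPM, so this sum mainly follows MPO and does not speak for each marker. The part of the ribosomal protein share or of the marker sum in these differences was not tested. In RNA of whole cultures, a change in the share of cells of a type and a change in RNA per cell cannot be told apart.

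**Figure D1:**
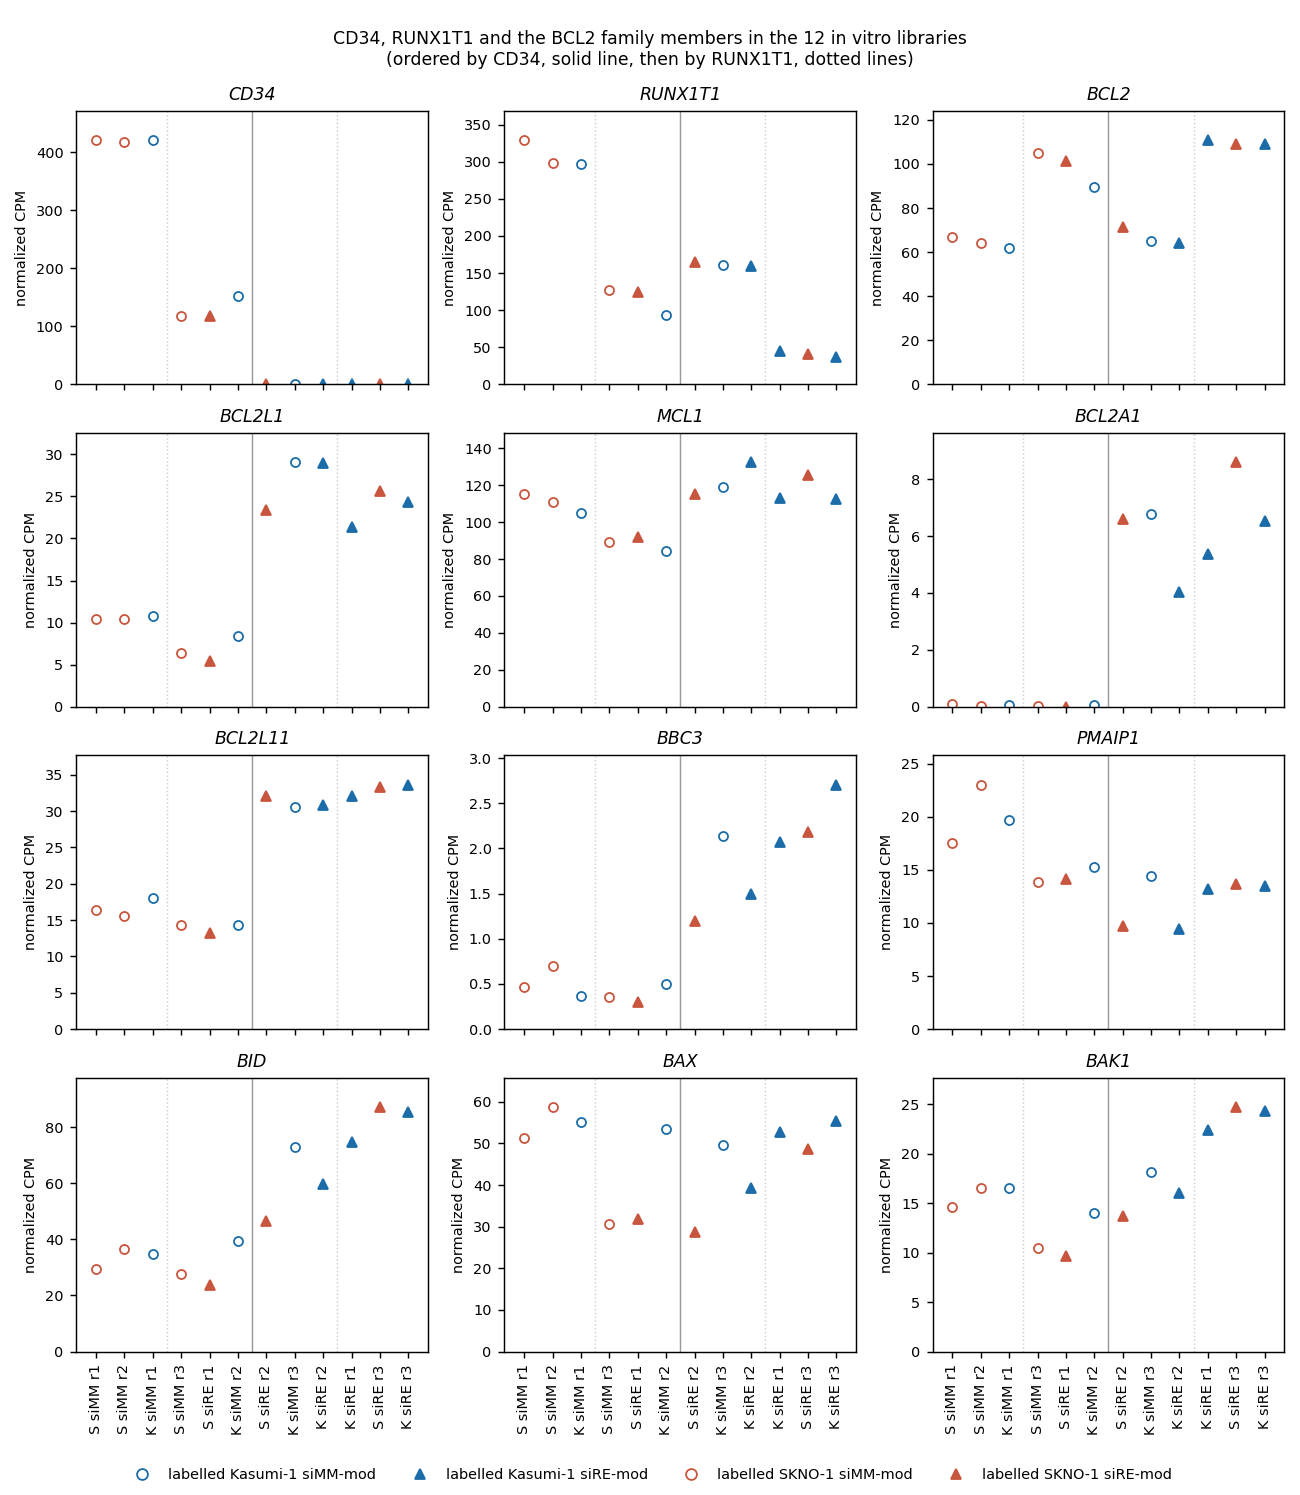
Normalized CPM (y axis, linear from 0) of CD34, RUNX1T1 and the 10 members in each of the 12 in vitro libraries (x axis; K, Kasumi-1; S, SKNO-1; r, replicate), ordered by CD34 (solid line) and within that by RUNX1T1 (dotted lines). Colour is the labelled line, open circles siMM-mod and filled triangles siRE-mod; BCL2 alternates between 61.7 to 71.4 and 89.5 to 111 CPM across the 4 blocks, whereas BCL2L1, BCL2A1 and BCL2L11 step up at the solid line.

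The BH3-only genes BCL2L11, BBC3 and BID lay higher in CD34-near-absent libraries, and PMAIP1 overlapped between the sets. BCL2L11 encodes BIM, which binds all the main anti-apoptotic proteins. It was 18.0, 14.4 and 30.6 CPM in Kasumi-1 siMM-mod, 32.1, 30.9 and 33.6 CPM in Kasumi-1 siRE-mod, 16.3, 15.6 and 14.3 CPM in SKNO-1 siMM-mod, and 13.3, 32.1 and 33.3 CPM in SKNO-1 siRE-mod. By CD34 it formed 2 tight levels, 13.3 to 18.0 CPM and 30.6 to 33.6 CPM. Within these, libraries with lower RUNX1T1 had less of it where CD34 was present (13.3 to 14.4 against 15.6 to 18.0 CPM) and slightly more where CD34 was near absent (32.1 to 33.6 against 30.6 to 32.1 CPM), the latter a gap of 32.12 to 32.11 CPM between the nearest libraries. MIR4435-2HG, a long non-coding RNA on the opposite strand, shares 10.9% of the exon bases of BCL2L11 and had the same order, 7.69 to 11.3 CPM in CD34-present and 20.3 to 24.7 CPM in CD34-near-absent libraries. Its part in the BCL2L11 counts was not tested.

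BBC3, which encodes the BH3-only protein PUMA, was the lowest of the members with 1543 reads over the 12 libraries. It was 0.367, 0.498 and 2.13 CPM in Kasumi-1 siMM-mod, 2.08, 1.50 and 2.71 CPM in Kasumi-1 siRE-mod, 0.471, 0.694 and 0.361 CPM in SKNO-1 siMM-mod and 0.298, 1.19 and 2.19 CPM in SKNO-1 siRE-mod. The CD34-present libraries did not exceed 0.694 CPM, and the CD34-near-absent ones started at 1.19 CPM.

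BID, which is cut by caspase-8 and so links death receptors to the mitochondria, was highest in the CD34-near-absent libraries with lower RUNX1T1. It was 34.7, 39.5 and 72.8 CPM in Kasumi-1 siMM-mod, 74.6, 59.8 and 85.5 CPM in Kasumi-1 siRE-mod, 29.3, 36.4 and 27.5 CPM in SKNO-1 siMM-mod and 23.8, 46.6 and 87.1 CPM in SKNO-1 siRE-mod. CD34-present libraries held 23.8 to 39.5 CPM with no separation by RUNX1T1. In CD34-near-absent libraries the 3 with lower RUNX1T1 were above the rest (74.6 to 87.1 against 46.6 to 72.8 CPM).

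PMAIP1 encodes NOXA, a BH3-only protein that binds MCL1 in particular. Its values were 19.7, 15.3 and 14.4 CPM in Kasumi-1 siMM-mod, 13.2, 9.46 and 13.5 CPM in Kasumi-1 siRE-mod, 17.5, 23.0 and 13.8 CPM in SKNO-1 siMM-mod and 14.1, 9.67 and 13.7 CPM in SKNO-1 siRE-mod. It was highest in the CD34-present libraries with higher RUNX1T1 (17.5 to 23.0 CPM), and 13.8 to 15.3 CPM in those with lower RUNX1T1. Levels in CD34-near-absent libraries, 9.46 to 14.4 CPM, overlapped the latter.

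The effectors BAX and BAK1, which form the pores, did not separate the libraries by CD34. BAX was 55.1, 53.4 and 49.6 CPM in Kasumi-1 siMM-mod, 52.8, 39.2 and 55.4 CPM in Kasumi-1 siRE-mod, 51.4, 58.7 and 30.7 CPM in SKNO-1 siMM-mod and 31.8, 28.7 and 48.5 CPM in SKNO-1 siRE-mod. The lowest 3 libraries, at 28.7 to 31.8 CPM, all carried the SKNO-1 label, and they came from both CD34 sets. BAK1 was 16.5, 14.0 and 18.1 CPM in Kasumi-1 siMM-mod, 22.4, 16.1 and 24.4 CPM in Kasumi-1 siRE-mod, 14.6, 16.6 and 10.4 CPM in SKNO-1 siMM-mod and 9.66, 13.7 and 24.7 CPM in SKNO-1 siRE-mod. With lower RUNX1T1, BAK1 was lower where CD34 was present (9.66 to 14.0 against 14.6 to 16.6 CPM) and higher where it was near absent (22.4 to 24.7 against 13.7 to 18.1 CPM). The processed pseudogene BAK1P1, a possible sink for BAK1 reads, was at most 0.460 CPM. How reads that match both were counted is not given in the sources used here, so this level does not show how many BAK1 reads were lost.

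Among CD34-present libraries, BCL2 was thus the 1 member higher in all 3 libraries with lower RUNX1T1, where 18.1% of genes were, and BCL2L1, MCL1, BCL2L11, PMAIP1 and BAK1 were the 5 lower, where 20.1% of genes were. Among CD34-near-absent libraries, 4 were higher (BCL2, BCL2L11, BID and BAK1), beside 21.7% of genes, and 0 lower, beside 21.6%. On CPM as deposited, scaled to library totals alone, MCL1 joined the 5 members higher in CD34-near-absent libraries. On that scale the members lower with lower RUNX1T1 in CD34-present libraries were BCL2L1, PMAIP1, BAX and BAK1, and BBC3, PMAIP1 and BAX joined those higher with lower RUNX1T1 in CD34-near-absent libraries, which made 7. The order of BCL2 was the same on both scales and with DESeq2 size factors.

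**Figure D2:**
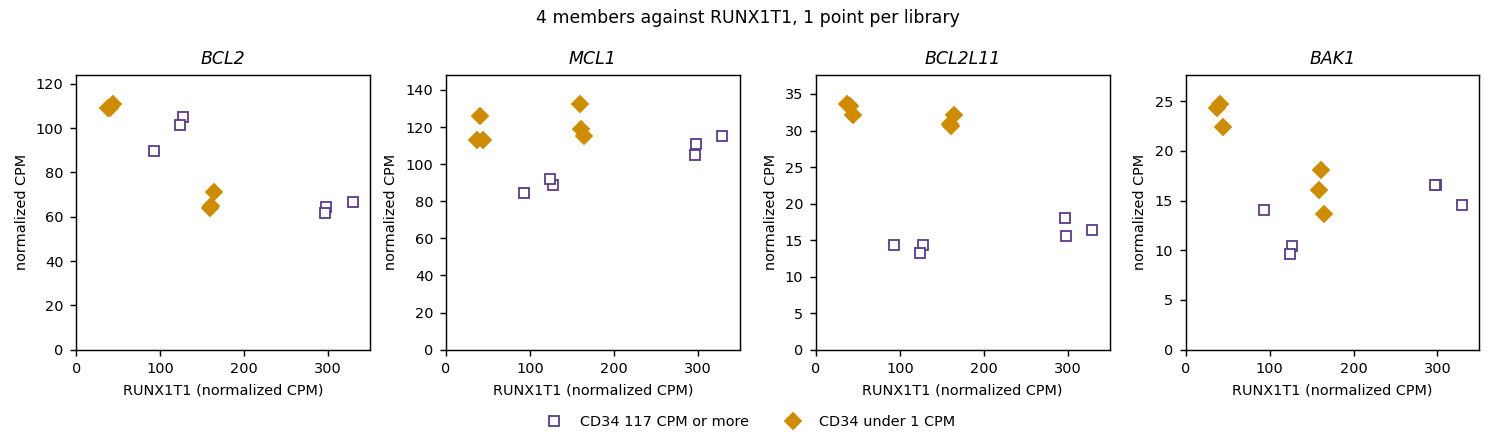
Normalized CPM of BCL2, MCL1, BCL2L11 and BAK1 (y axes, linear from 0) against that of RUNX1T1 (x axis), with 1 point per in vitro library, open squares for CD34-present and filled diamonds for CD34-near-absent libraries. BCL2 is at 89.5 CPM or more in all 6 libraries with RUNX1T1 at or under 127 CPM, BCL2L11 keeps 2 levels set apart by CD34, and the 2 sets of libraries run in opposite directions for BAK1.

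Compared by label, as the design implies, none of the members passed the threshold in either line. Kasumi-1 libraries labelled siRE-mod had higher estimates than those labelled siMM-mod for 8 of 10 members (median log2 fold change 0.49, beside 0.02 over all genes tested), and SKNO-1 libraries for 7 of 9 (0.25, beside 0.03). BBC3 had 575 reads in SKNO-1, under the minimum of 600, and was not tested there. The labels were uneven in CD34. In Kasumi-1 all siRE-mod libraries but only replicate 3 of siMM-mod were CD34-near-absent. In SKNO-1 replicates 2 and 3 of siRE-mod were, and no siMM-mod library was. The part of this in the estimates was not tested. The edgeR quasi-likelihood test with Benjamini-Hochberg adjustment called 0 of 13608 genes in Kasumi-1 (0%) and 0 of 13628 in SKNO-1 (0%) at an adjusted p under 0.05. Unadjusted p-values were under 0.05 for 17.9% of genes in Kasumi-1 and none of the 10 members, and for 10.7% in SKNO-1 and 1 of 9 members, BCL2A1. DESeq2 with the same filter called 8.5% of genes in Kasumi-1, none of them members, and 2.73% in SKNO-1, BCL2A1 included.

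Labels did not overlap for BCL2L11 (higher under siRE-mod) and PMAIP1 (lower) in Kasumi-1, as for 21.6% of genes there, and for 0 of 9 members in SKNO-1, beside 12.1% of genes. On CPM as deposited, PMAIP1 overlapped in Kasumi-1 (18.6, 13.0 and 13.4 CPM under siMM-mod, 15.7, 10.3 and 15.0 CPM under siRE-mod), and the 3 members without overlap there were BCL2L11, MCL1 and BAK1. Single genes were not permuted, because the smallest two-sided p of an exact permutation test over these labels is 0.1.

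The largest estimate was that of BCL2A1 in SKNO-1, a log2 fold change of 6.96 ± 2.162 (SE, n = 3 and 3; edgeR, adjusted p = 0.466). By DESeq2 it was 6.98 with an adjusted p of 0.00347. The control side of this ratio rests on 8 reads in all, and 1 of the 3 libraries labelled siRE-mod had none, so the labels overlapped. In Kasumi-1 the same gene had an estimate of 1.23 ± 1.641 (edgeR, adjusted p = 0.686), with replicate 3 of siMM-mod at the level of the siRE-mod libraries.

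For the BH3-only genes the log2 fold changes were 0.63 ± 0.285 and 0.76 ± 0.356 for BCL2L11, 0.59 ± 0.308 and 0.74 ± 0.436 for BID, and -0.45 ± 0.226 and -0.54 ± 0.283 for PMAIP1, in Kasumi-1 and SKNO-1. BBC3 had 1.08 ± 0.714 in Kasumi-1. The adjusted p-values of these 7 edgeR estimates lay between 0.308 and 0.542. BCL2L1 had 0.64 ± 0.475 and 0.99 ± 0.560 (edgeR, adjusted p = 0.478 and 0.531). For the effectors the estimates were -0.10 ± 0.170 and -0.37 ± 0.308 (BAX) and 0.37 ± 0.209 and 0.20 ± 0.382 (BAK1), with edgeR adjusted p-values from 0.373 to 0.878.

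One library in each line decided these calls. Without replicate 3 of siMM-mod, edgeR called 32.2% of 13200 genes in Kasumi-1, and 5 of 10 members passed, all higher under siRE-mod: BCL2L1 (1.37 ± 0.205, adjusted p = 0.00522), BCL2A1 (6.18 ± 0.402, 0.000394), BCL2L11 (0.99 ± 0.155, 0.00605), BBC3 (2.27 ± 0.377, 0.00742) and BID (0.98 ± 0.187, 0.0117). Without replicate 1 of siRE-mod, it called 19.3% of 13119 genes in SKNO-1, and 4 of 9 members passed, again higher: BCL2L1 (1.41 ± 0.270, 0.0164), BCL2A1 (7.52 ± 0.742, 0.00181), BCL2L11 (1.06 ± 0.175, 0.00993) and BID (1.07 ± 0.282, 0.046). In each case the library left out is the one whose CD34 set differs from that of the other 2 libraries with its label. The rest compare CD34-present siMM-mod with CD34-near-absent siRE-mod libraries, so siRNA and CD34 set cannot be told apart. BCL2, MCL1, PMAIP1, BAX and BAK1 did not pass in either of these fits. Leaving out any other single library gave 0 calls in the line.

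**Figure D3:**
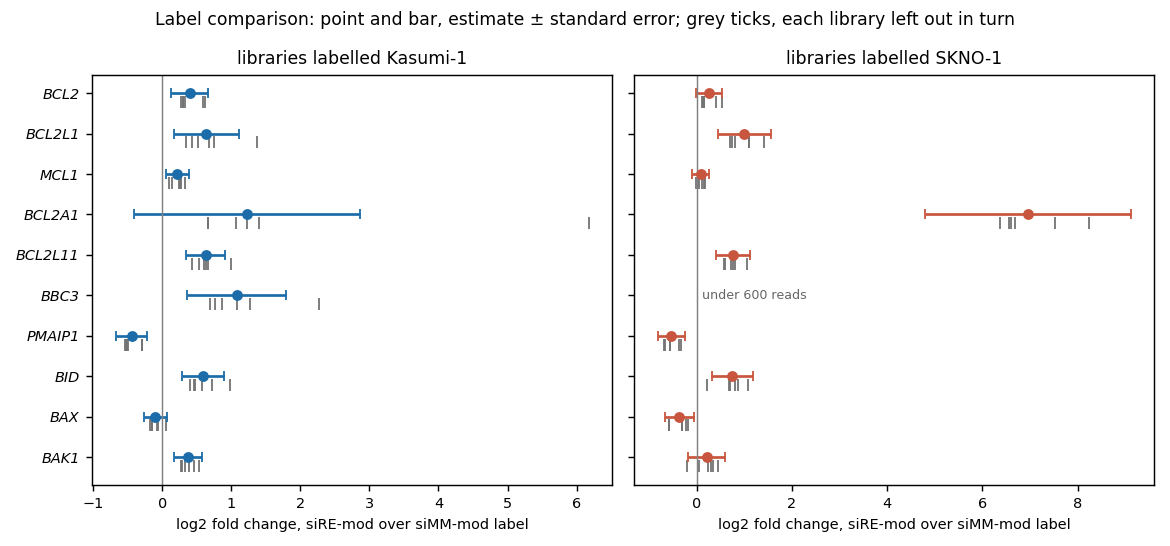
Log2 fold change of siRE-mod over siMM-mod labels for each member (x axes differ between the panels), with points and bars for the edgeR estimate ± SE of 3 against 3 libraries, and grey ticks for the estimates with each of the 6 libraries left out. The tick at 6.18 for BCL2A1 in Kasumi-1 is the fit without siMM-mod replicate 3, against 1.23 with all libraries. Bars cross 0 for BCL2A1 and BAX in Kasumi-1 and for BCL2, MCL1 and BAK1 in SKNO-1.

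Compared between genes per kb of exon, MCL1 and BAX were the most abundant members. Median levels over the 12 libraries were 25.8 CPM per kb for MCL1 and 19.5 for BAX, and MCL1 exceeded BAX in 11 of the 12. BID followed with 9.68, above BAK1 in 11 of 12 libraries and below BAX in 11 of 12. BAK1 (7.37) exceeded BCL2 (6.84) in 9 libraries, and the other 3 were the CD34-present libraries with lower RUNX1T1, where BCL2 was 7.61 to 8.93 and BAK1 4.37 to 6.33 CPM per kb. BCL2 exceeded PMAIP1 (6.26) in all 6 libraries with lower RUNX1T1 and in 2 of the 3 CD34-near-absent libraries with higher RUNX1T1, and was below it in the 3 CD34-present ones with higher RUNX1T1.

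For the less abundant members the order turned with CD34, so a median over the 12 libraries places them poorly. PMAIP1 exceeded BCL2L1 in all 6 CD34-present libraries (6.19 to 10.3 against 1.66 to 3.24 CPM per kb) and was below it in all 6 CD34-near-absent ones (4.23 to 6.44 against 6.44 to 8.77). BCL2L1 exceeded BCL2L11 in all 6 CD34-near-absent libraries and in 4 of the 6 CD34-present ones. BCL2A1 was the lowest member in CD34-present libraries, at 0 to 0.103 CPM per kb against 0.0937 to 0.218 for BBC3, and exceeded both BBC3 and BCL2L11 in all 6 CD34-near-absent libraries, at 4.83 to 10.3 CPM per kb.

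Summed per kb of exon, the 4 anti-apoptotic genes came to 29.5 to 35.3 CPM per kb in CD34-present and 47.4 to 56.1 in CD34-near-absent libraries, without overlap. BCL2A1 and BCL2L1 carried much of this, since BCL2A1 made up at most 0.310% of the anti-apoptotic sum in the former and 9.79% to 18.3% in the latter, and BCL2L1 5.29% to 9.94% and 13.4% to 17.7%. MCL1 remained the largest part of that sum, 65.2% to 74.7% in CD34-present and 51.3% to 61.4% in CD34-near-absent libraries. The BH3-only sums, 13.8 to 21.1 and 20.0 to 31.4 CPM per kb, and the effector sums, 16.6 to 30.2 and 17.3 to 32.4, overlapped.

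The level of BCL2 per kb as a ratio to that of MCL1 overlapped between the CD34 sets. Within each set this ratio differed between libraries with higher and lower RUNX1T1, without overlap. It was 0.215 to 0.218 with higher and 0.395 to 0.439 with lower RUNX1T1 in CD34-present libraries, and 0.180 to 0.230 and 0.322 to 0.365 in CD34-near-absent libraries. CD34 differed between the same libraries as well, and how many other ratios separate in this way was not counted. The ratio does not depend on how libraries are scaled. mRNA levels do not give the amounts of protein, which for MCL1 and NOXA are set largely by turnover.

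**Figure D4:**
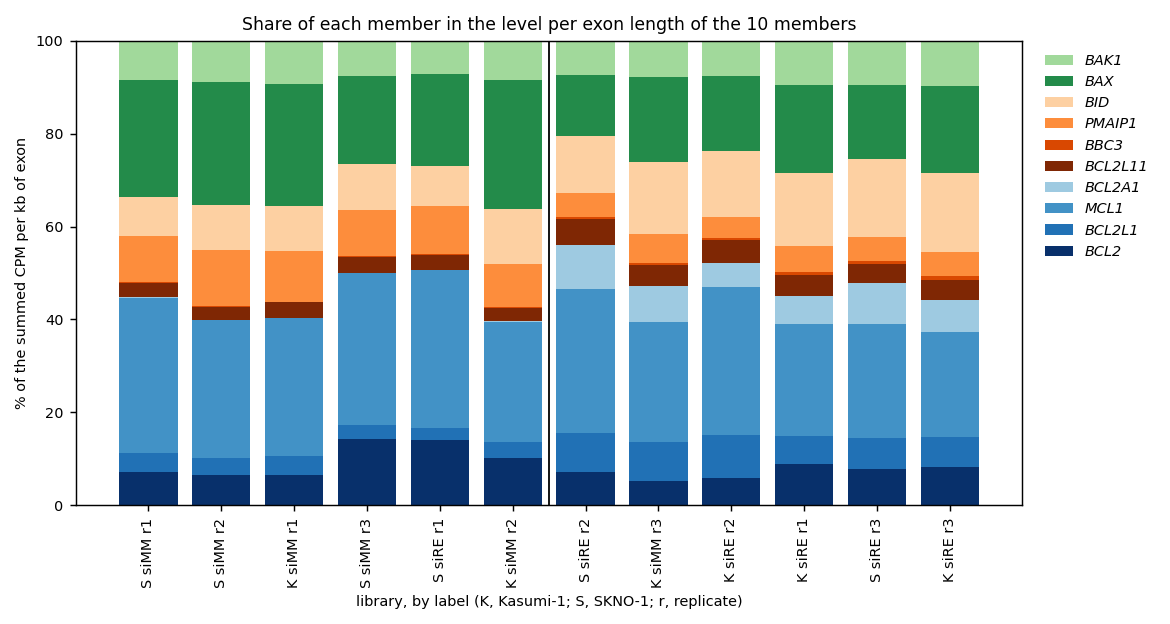
Share of each member (stacked, %) in the summed CPM per kb of exon of the 10 members, for each in vitro library in the same order as before, with blue for anti-apoptotic, orange to brown for BH3-only and green for effector genes. BCL2A1 (palest blue) is at most 0.130% left of the line and 5.11% to 9.30% of the 10 members right of it, and PMAIP1, whose share also depends on the other members, is 9.17% to 12.1% left of the line and 4.48% to 6.13% right of it, while its own CPM overlaps (13.8 to 23.0 and 9.46 to 14.4 CPM).

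The rest of the pathway was taken from fixed lists, and none of their genes passed the edgeR test by label in either line. Of 13 other BCL2 family genes, 8 were tested in each line, and their median log2 fold change was -0.18 for Kasumi-1 and 0.28 for SKNO-1. BNIP3, a mitophagy receptor with a BH3-like motif, ranged from 38.0 to 346 CPM. It was lower in all libraries with lower RUNX1T1 in both sets, 38.0 to 46.1 against 75.1 to 85.7 CPM with CD34 present and 55.9 to 93.9 against 220 to 346 CPM with CD34 near absent. BOK, a BAX-like protein, had that order too, 0.658 to 0.893 against 1.66 to 2.13 CPM with CD34 present and 0.0979 to 0.207 against 0.282 to 0.461 CPM with CD34 near absent. In all, 4 of the 9 genes of this list with at least 600 reads were lower with lower RUNX1T1 in both sets (BOK, BIK, BNIP3 and BNIP3L), as were 6.88% of all genes and 0 of the 10 members.

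The 9 genes of the apoptosome and caspases, which act after the pore opens, had medians of -0.47 (Kasumi-1) and -0.32 (SKNO-1) on that scale.

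Among 8 inhibitors of apoptosis and their antagonists, the medians were 0.38 in Kasumi-1 and 0.08 in SKNO-1. BIRC3, which encodes the ubiquitin ligase cIAP2 and is an NF-kB target like BCL2A1, was 0.116 to 0.551 CPM in CD34-present and 15.6 to 104 CPM in CD34-near-absent libraries. It was also higher with lower RUNX1T1 in both sets, 0.396 to 0.551 against 0.116 to 0.171 CPM with CD34 present and 70.4 to 104 against 15.6 to 19.3 CPM with CD34 near absent. BCL2A1 overlapped in both of these splits. Of the 8 genes of this list, 2 were higher with lower RUNX1T1 in both sets, beside 5.72% of all genes. NAIP, a sensor of bacterial proteins with inhibitor of apoptosis domains, overlapped between the sets (28.3 to 63.0 and 53.0 to 87.6 CPM).

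Of 6 genes of MCL1 and BIM turnover and transcription, with medians of -0.15 and -0.03, FOXO3, a transcription factor that activates BCL2L11, was lower with lower RUNX1T1 in both sets. It was 39.9 to 47.3 against 60.0 to 66.1 CPM with CD34 present, and 26.5 to 30.4 against 44.1 to 52.3 CPM with CD34 near absent. In all, 2 of the 6 genes of this list had that order, as did 6.88% of all genes. BCL2L11 did not share it, being slightly higher with lower RUNX1T1 where CD34 was near absent, and a link between the 2 genes was not tested.

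In genome position the 10 genes lie on 8 chromosomes (GRCh38), with BCL2 (chr18:63123346-63320128, minus strand) and PMAIP1 (chr18:59899948-59904306, plus strand) on chromosome 18 and BAX and BBC3 on chromosome 19. BCL2 has the longest exon sequence, 11765 bases, and BCL2A1 the shortest, 836 bases at chr15:79960892-79971196.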

How the data were processed

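RNA-seq of 12 in vitro libraries was analysed, grouped by line, siRNA and replicate as in the sample titles. For the deposited tables the authors trimmed reads with Trim Galore 0.6.5, aligned them to GRCh38 with STAR 2.7.10a and counted reads per gene over exons. Submitters' processing notes name Subread 1.6.5 and the file headers Rsubread 1.32.4 under R 3.5.1. The deposited raw counts were tested. CPM as deposited are these counts over the library total, and FPKM as deposited the same per kb of exon. The 4 in vivo tables of deposited counts were read only for the members.

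Counts were fitted in each line with edgeR 4.0.16 (R 4.3.3, glmQLFit with robust estimation, glmQLFTest, TMM). All genes with at least 600 reads in the 6 libraries of the line were tested, with Benjamini-Hochberg adjustment at 0.05. The methods of the study give a minimum of 600 reads in total without naming the libraries, and its use within each line was chosen here. Libraries kept their labels in every fit. A fitted log2 fold change is given with its SE, the absolute estimate over the square root of the quasi-likelihood F statistic. DIABLO is listed under 2 identifiers, and the one with more reads was used. On simulated counts both tools recovered most altered genes, and DESeq2 made more false calls than edgeR. The simulated spread between libraries was far smaller than in these fits (common dispersion 0.197 for Kasumi-1 and 0.246 for SKNO-1). It also held no split of libraries within a label, so it cannot show how either tool performs on these libraries. The limit set for DESeq2 in that test was loosened after its result was seen.

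Depth was 60559466 to 147990959 counts per library, and no pair of libraries agreed within sampling noise. The members, lists and tests were chosen with earlier results of these data known. Named genes are the 10 members and, for each other list, the 2 genes with the widest range over libraries among those with at least 600 reads, except some that are not reported here. CD34, RUNX1T1 and IL5RA are used only to read the libraries, and the level that divides CD34 (10 CPM) and the division of RUNX1T1 at its widest gap were chosen after the values were seen. Exon overlaps are from the GENCODE annotation of GRCh38 and promoter windows from RefSeq. Alternatives were DESeq2 1.42.0, its size factors in edgeR, a minimum of 1 read, a single fit of the 12 libraries, a block for the replicate number, each library left out, and other scalings of library values. Python 3.11.15, numpy 2.4.6, pandas 2.3.3 and matplotlib 3.10.9 were used.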

Additional observations from a re-analysis of the deposited data

How the results depend on the processing

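The count of genes called by label was 0 in both lines with edgeR, with DESeq2 size factors, with a minimum of 1 read and with all 12 libraries in one fit, and with DESeq2 1156 (Kasumi-1) and 372 (SKNO-1). Leaving out 1 library gave 0 to 4250 calls in Kasumi-1 and 0 to 2535 in SKNO-1, the upper ends without siMM-mod replicate 3 and without siRE-mod replicate 1. The cause of the difference between the tools was not tested. Of 114 members' log2 fold changes with 1 library left out, 102 kept direction and side of the threshold, 9 passed it and 3 changed sign. These 3 were BAX in Kasumi-1 (-0.178 to 0.047, above 0 without siRE-mod replicate 2), MCL1 in SKNO-1 (-0.019 to 0.173, below 0 without siMM-mod replicate 3) and BAK1 in SKNO-1 (-0.21 to 0.44, below 0 without siRE-mod replicate 3). Under the remaining alternatives 94 of 95 kept both, and BCL2A1 in SKNO-1 passed with DESeq2. Of 80 group means under other scalings, 3 moved by more than 1 SD, all with CPM as deposited: MCL1 (134) and BCL2L11 (36.4) in Kasumi-1 siRE-mod and BAX (48.0) in Kasumi-1 siMM-mod. The order of members per kb was that of the deposited FPKM in 12 of 12 libraries.

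Same-numbered libraries did not deviate together (correlations of -0.02, -0.27 and -0.01 for Kasumi-1, and for SKNO-1 -0.13, -0.02 and -0.25). With 3 libraries per label that cross the CD34 sets, these correlations cannot show whether the replicate numbers pair libraries. The replicate block gave 0 calls in both lines, with unadjusted p-values under 0.05 for 1763 and 1133 genes, and moved the estimate of BCL2A1 in Kasumi-1 to 4.26. At this depth BCL2A1 in CD34-present libraries (at most 6 counts) and BBC3 in the same libraries (20 to 48 counts) are the members limited by counting.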
